A study of Saccharomyces cerevisiae with 8 samples.

Results

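The interaction of strain and rapamycin in the budding yeast Saccharomyces cerevisiae is the effect of the drug in cells with FRB-tagged Dbp2 minus its effect in the parental cells. It was taken on the log2 scale for every yeast feature of the deposited table of read densities, and 9656 of 10799 yeast features had enough signal to be tested. A positive value means that the treated-to-untreated ratio was higher in the tagged strain. All cells were of the W303 background and MATalpha. They carried a mutant leu2 allele, ura3, ade2-1, his3-11,15, can1-100 and trp1-1, GAL, psi+, the tor1-1 allele, FPR1 replaced by NAT, and RPL13A joined to 2×FKBP12 with a TRP1 marker. The tagged cells carried DBP2-FRB-GFP-KanMX6 in addition, an allele that stands in the source name of those samples and is missing from their genotype field. The 4 groups were parental cells untreated, parental cells after 1 h with rapamycin at 1 µg/mL, and the tagged cells without and with the same treatment. Each group had 2 biological replicates grown to mid-log phase in YPD at 30 °C, and the labels give no number of clones per strain. Total RNA was depleted of rRNA and sequenced with strand kept.

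Anchor-away depletion uses rapamycin as a bridge: the drug binds FKBP12 and the FRB domain at once, so an FRB-tagged nuclear protein leaves the nucleus with an FKBP12-tagged ribosomal protein during ribosome export. The tor1-1 allele and the loss of FPR1, the main yeast FKBP12, are there to keep the drug from inhibiting TORC1, the kinase complex that couples nutrients to growth. Drug effects shared by both strains cancel in the interaction, and so does any constant effect of the tag. Dbp2 is a DEAD-box RNA helicase that acts on RNA-protein complexes in the nucleus. The series title asks whether it bears on XUTs, long noncoding RNAs that the cytoplasmic exonuclease Xrn1 degrades. The table also holds CUTs, noncoding RNAs removed by the nuclear exosome, NUTs, which accumulate when the termination factor Nrd1 is absent, and snoRNAs, which guide modification of rRNA.

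Yeast reads numbered 22523078 to 27500113 in a library, and 2.93 to 4.44% of its reads came from 92 ERCC spike-in RNAs, to which the authors scaled the densities. The depletion of the Dbp2 protein cannot be read from RNA. DBP2 density was 2.42 and 2.61 in untreated and 2.29 and 2.59 in treated parental libraries, 3.05 and 3.03 in untreated tagged libraries and 4.33 and 2.86 in treated ones. Its treated tagged replicates stood apart, the groups overlapped, and the DBP2 interaction was 0.26 ± 0.23 (limma adjusted p = 0.637). The DBP2 interaction was −0.0407 without tagged rapamycin replicate 1. The neighbouring genes RPC19, which encodes a protein shared by RNA polymerases I and III, and CYB5, cytochrome b5, had interactions of 0.33 ± 0.23 and 0.35 ± 0.22 (limma adjusted p = 0.596 and 0.579). FPR1, deleted by the labels, had 74 to 122 reads in every library and an interaction of −0.46 ± 0.23 (limma adjusted p = 0.529), and the table does not show where in the locus these reads lie. Of the alpha-cell genes, MF(ALPHA)1 stood between 21.1 and 27.8 in all 8 libraries and STE3 between 2.42 and 3.53, while MF(ALPHA)2 was low in tagged libraries, as described among the mating genes.

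The feature with the lowest p in the interaction is snR56, a box C/D snoRNA that guides 2′-O-methylation of the small-subunit rRNA. It is encoded on chromosome II from 88190 to 88277 on the plus strand (R64, RefSeq), between AAR2 and RPS8A, which are both on the minus strand. The gene is shown first with the C box ATGATGA and both CTGA motifs of the D type in capitals, then with the stretch complementary to 18S rRNA in capitals.
snR56 boxes: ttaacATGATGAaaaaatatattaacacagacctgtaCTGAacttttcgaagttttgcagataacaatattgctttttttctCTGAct
snR56 guide: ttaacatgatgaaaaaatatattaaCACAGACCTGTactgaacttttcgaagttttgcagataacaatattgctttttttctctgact
The C box starts at base 6 of 88 and the CTGA motifs at bases 38 and 83. The 11 bases CACAGACCTGT end 1 base before the first CTGA and are the exact complement of bases 1425 to 1435 of 18S rRNA, a stretch that occurs 1 time in that RNA. The base of 18S rRNA opposite the fifth position before that CTGA is G1428, the position that RefSeq gives as its methylation site.

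Of the 9656 features, limma called 3 higher in the interaction (0.0311%), snR56, NUT0013 and RRT5, and 1 lower (0.0104%), ASP3-1, at an adjusted p under 0.05. At an unadjusted p under 0.05 there were 880 higher and 55 lower. The median interaction of all features was 0.22, and 8356 features (86.5%) lay above 0. Most features moved by little: 90% lay between −0.18 and 0.62, 104 were at least 2-fold higher and 26 at least 2-fold lower, and for 8144 (84.3%) the 95% interval lay wholly within 2-fold in either direction. All 4 treated minus untreated differences of tagged libraries were above all 4 of parental libraries for 2326 features and below them for 112, to be read beside the 0.0311 and 0.0104% that were called. With 36 arrangements of the treatment within strains, the smallest two-sided p of an exact permutation test would be 0.0556, so none was run for single features.

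**Figure D1:**
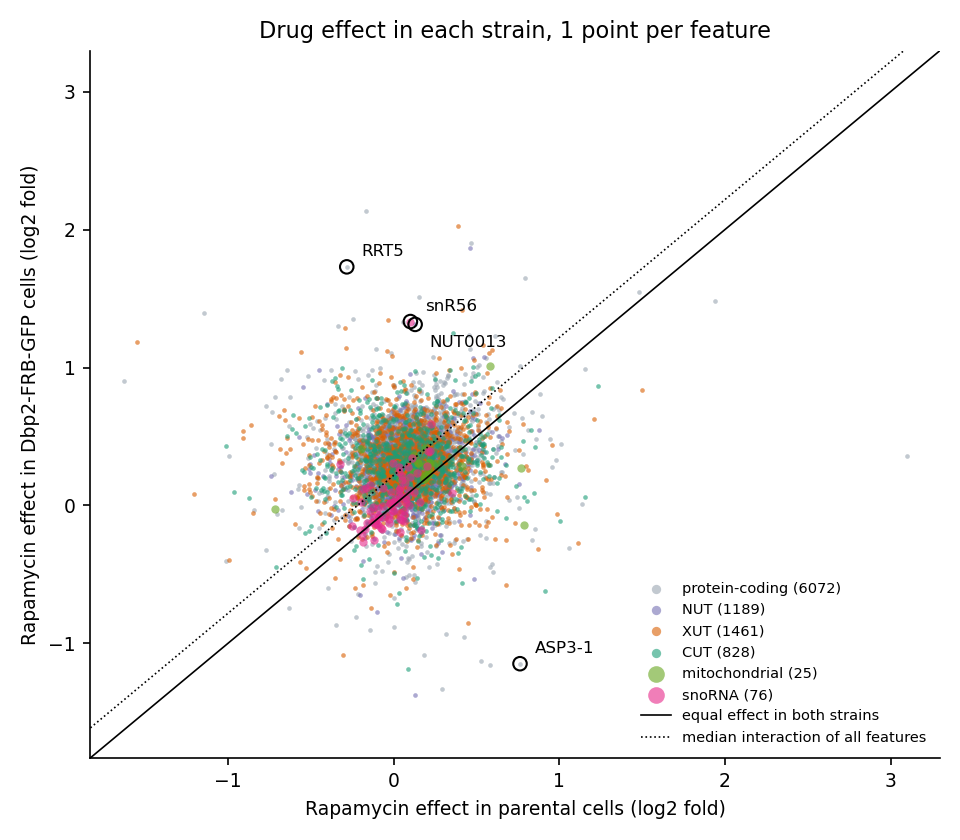
Rapamycin effect (log2 fold) in parental cells on the x axis and in Dbp2-FRB-GFP cells on the y axis, 1 point for each feature of the classes in the legend (counts in brackets), coloured by class. The solid line marks equal effects, the dotted line the median interaction of 0.22, and circles mark the 4 called features, of which snR56, NUT0013 and RRT5 lie above and ASP3-1 below the lines.

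The drug effects that make up the interaction share no library and had little in common. Rapamycin called 2 features higher (0.0207%) and 1 lower (0.0104%) in parental cells, and 1322 higher (13.7%) and 14 lower (0.145%) in tagged cells. The median drug effect of all features was 0.10 in parental and 0.32 in tagged cells. Across the 9656 features the 2 effects had a Pearson correlation of 0.0968 and a Spearman correlation of 0.112, given as a description because features of a library share its scaling and depth. For the 76 snoRNAs these were 0.429 and 0.495, the highest of the classes, and for XUTs 0.0507 and 0.079. Among the 1322 features called higher in tagged cells, the parental effect had a median of 0.13, beside 0.10 for all features. It was positive for 1064 of the 1322, a share close to that among all features. It reached an unadjusted p under 0.05 for 138 higher and 16 lower, beside 430 higher and 98 lower of all 9656 features. The share higher was thus larger than among all features. Both effects were tested with the same spread of each feature over 8 libraries. A choice by calls in tagged cells favours features of small spread, and so a low parental p. Among the 14 called lower in tagged cells, the parental effect was positive for 9 and negative for 4. No feature was called in both strains with opposite sign, and 2 were called in both with the same sign. Single libraries moved these counts. In tagged cells those called higher numbered 229 or 4675 without rapamycin replicate 1 or 2, 337 or 106 without untreated replicate 1 or 2, and 2589 or 2579 without parental untreated replicate 1 or 2. In parental cells they numbered 1 or 8 without untreated replicate 1 or 2, 26 or 47 without rapamycin replicate 1 or 2, and 35 to 43 without any 1 tagged library.

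In parental cells PIR3, a cell-wall protein gene, rose with the drug from 0.466 and 0.430 to 0.932 and 0.758 (0.90 on the log2 scale). In tagged cells it rose from 1.34 and 1.11 to 1.95 and 1.87 (0.65, limma adjusted p = 0.0173), and its interaction was −0.25 ± 0.21 (limma adjusted p = 0.63). XUT0992 rose in parental cells by 1.5 from 2 reads in each untreated library to 10 and 7, and in tagged cells by 0.83 from 13 and 8 reads to 15 and 17. XUT0807 fell in parental cells by 1.20, from 11 and 10 reads to 3 in each, and had 9 to 11 reads in all tagged libraries. Its interaction of 1.28 ± 0.28 did not pass (limma adjusted p = 0.0863).

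Whole libraries stood at different levels against the spike-ins. Set against the geometric mean of all 8 libraries, the level of protein-coding features was 0.783 and 0.902 in untreated and 0.882 and 0.926 in treated parental libraries. It was 1.04 and 0.998 in untreated tagged libraries and 1.39 and 1.20 in treated ones. Treated tagged libraries were thus the highest, while both parental groups overlapped, and replicates of 1 group differed by up to a median of 0.203 on the log2 scale, close to the median interaction itself. The snoRNA level was 1.27 ± 0.0515 in untreated and 1.31 ± 0.0449 in treated tagged cells (SD, n = 2), and 0.781 ± 0.00283 and 0.776 ± 0.0516 in parental cells. In bulk libraries the number of cells and the RNA per cell behind a spike-in ratio cannot be told apart, and the labels used here do not say when the spike-ins were added. The all-feature median was 0.118 without tagged rapamycin replicate 1 and 0.119 without parental untreated replicate 2. It was 0.320 without tagged rapamycin replicate 2 and 0.318 without parental untreated replicate 1.

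**Figure D2:**
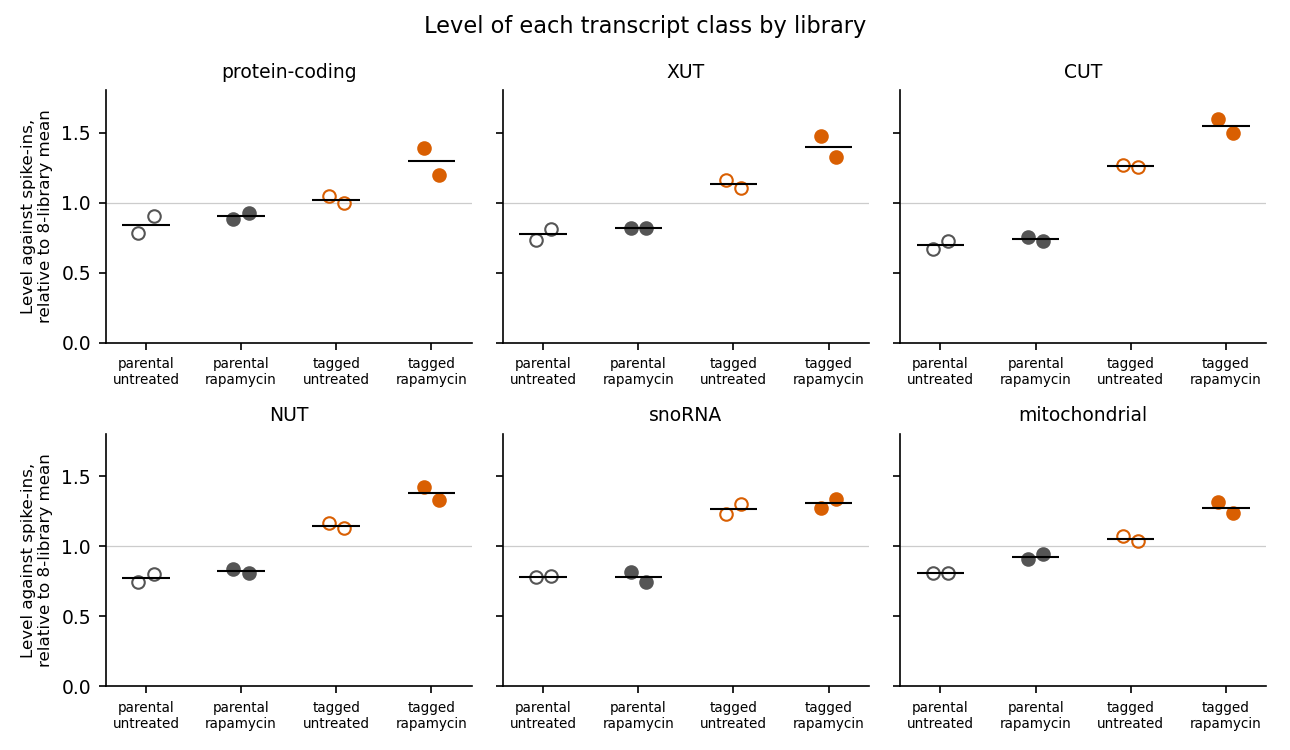
Level of each transcript class in each of the 8 libraries (points) against the spike-ins, relative to the geometric mean over libraries, with the group mean as a line; open points are untreated, filled points rapamycin, grey parental and orange tagged. In tagged cells the drug-treated libraries were highest for protein-coding features, at 1.39 and 1.20, while the snoRNA level was 1.27 untreated and 1.31 treated.

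When libraries were scaled to their protein-coding features, called the protein-coding scale from here, the all-feature median went from 0.22 to −0.03, and limma called 0 features higher and 0 lower in the interaction, with 971 at an unadjusted p under 0.05 and a lowest adjusted p of 0.12. The tagged strain then had 6 features called higher and 16 lower with rapamycin. Quantile normalization also gave 0 and 0 in the interaction (lowest adjusted p 0.0606), while scaling to snoRNAs gave 69 and 11. The counts also moved with single libraries. Without parental untreated replicate 1 or 2 there were 10 higher and 0 lower, or 4 and 4. Without parental rapamycin replicate 1 or 2 there were 70 and 10, or 103 and 23. Without tagged untreated replicate 1 or 2 there were 59 and 14, or 49 and 15, and without tagged rapamycin replicate 1 or 2 there were 41 and 17, or 54 and 8.

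The snoRNA snR56 rose with rapamycin in the tagged strain alone. Its density was 2.13 and 2.40 in untreated and 2.53 and 2.34 in treated parental libraries, 7.96 and 8.15 in untreated tagged libraries and 20.8 and 19.8 in treated ones. Parental groups overlapped each other, and each tagged library stood above all parental ones. The interaction was 1.23 ± 0.18 (limma adjusted p = 0.00849), from a drug effect of 0.10 in parental and 1.33 in tagged cells. It stood 1.01 above the all-feature median, was 0.98 on the protein-coding scale (limma adjusted p = 0.136), and was called without each of the 8 libraries in turn (1.15 to 1.32). The reads behind it were 217 to 252 in parental, 722 and 720 in untreated tagged and 1566 and 1380 in treated tagged libraries. Its neighbours were not called: RPS8A, a small-subunit ribosomal protein gene, had an interaction of 0.18 ± 0.19 and AAR2, a splicing factor gene, of 0.08 ± 0.26 (limma adjusted p = 0.675 and 0.881).

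NUT0013 had nearly the same course as snR56. Its density was 0.227 and 0.246, then 0.270 and 0.249 with rapamycin in parental libraries, and 0.874 and 0.927, then 2.28 and 2.21 in tagged libraries. The tagged groups were far apart, the parental groups lay next to each other, and the interaction was 1.18 ± 0.20 (limma adjusted p = 0.0211). Its reads were 1.28 to 1.42 times those of snR56 in every library. The table gives no position for NUTs, so whether both features count the same reads was not tested. The interaction was 0.93 on the protein-coding scale and 1.13 to 1.24 without 1 library, and was called in each of those 8 fits.

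RRT5, a gene annotated as expressed during sporulation, lies on chromosome VI from 222090 to 222959 on the minus strand (R64), 298 bases behind the end of RPL29 on the same strand. It had 5 and 10 reads in untreated and 2 and 7 in treated parental libraries, 62 and 52 in untreated tagged libraries and 197 and 137 in treated ones. All tagged libraries were above all parental ones, and the interaction was 2.01 ± 0.35 (limma adjusted p = 0.0211). It was called in 7 of 8 fits that left out 1 library, and lost without parental untreated replicate 2 (limma adjusted p = 0.116). RPL29, a large-subunit ribosomal protein gene, had densities of 15.9 to 18.1 in parental and 27.9 to 31.1 in tagged libraries and an interaction of 0.10 ± 0.17 (limma adjusted p = 0.785).

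ASP3-1, which encodes a cell-wall asparaginase that releases nitrogen from asparagine, was the only feature called lower. It lies on chromosome XII from 469317 to 470405 on the minus strand (R64). Its density was 0.0212 and 0.0281 in untreated and 0.0529 and 0.0409 in treated parental libraries, 0.0267 and 0.0165 in untreated tagged libraries and 0.00536 and 0.00581 in treated ones. Treated parental libraries were highest and treated tagged libraries lowest, with no overlap between them or with the untreated groups. The drug effect was 0.76 in parental and −1.15 in tagged cells, and the interaction was −1.91 ± 0.33 (limma adjusted p = 0.0211). The reads were 5 in each treated tagged library and 18 to 57 elsewhere. It was called in 7 of 8 fits that left out 1 library, and lost without parental untreated replicate 1 (limma adjusted p = 0.0871). With a pseudocount at the 25th percentile of values the interaction was −0.96.

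The genome holds 3 further copies of ASP3, and over their 1089 bases all 4 copies are identical, so reads cannot be assigned to a copy with certainty. ASP3-2, ASP3-3 and ASP3-4 were below the filter. Their summed density was 0.0178 and 0.0149, then 0.0353 and 0.0165 in parental libraries, and 0.0205 and 0.0165, then 0.0225 and 0.0221 in tagged libraries, with overlapping parental groups. Over all 4 copies the summed density was 0.0390 and 0.0431, then 0.0882 and 0.0574 in parental libraries, and 0.0472 and 0.0329, then 0.0279 and 0.0279 in tagged libraries. As for ASP3-1, treated parental libraries were highest and treated tagged libraries lowest.

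**Figure D3:**
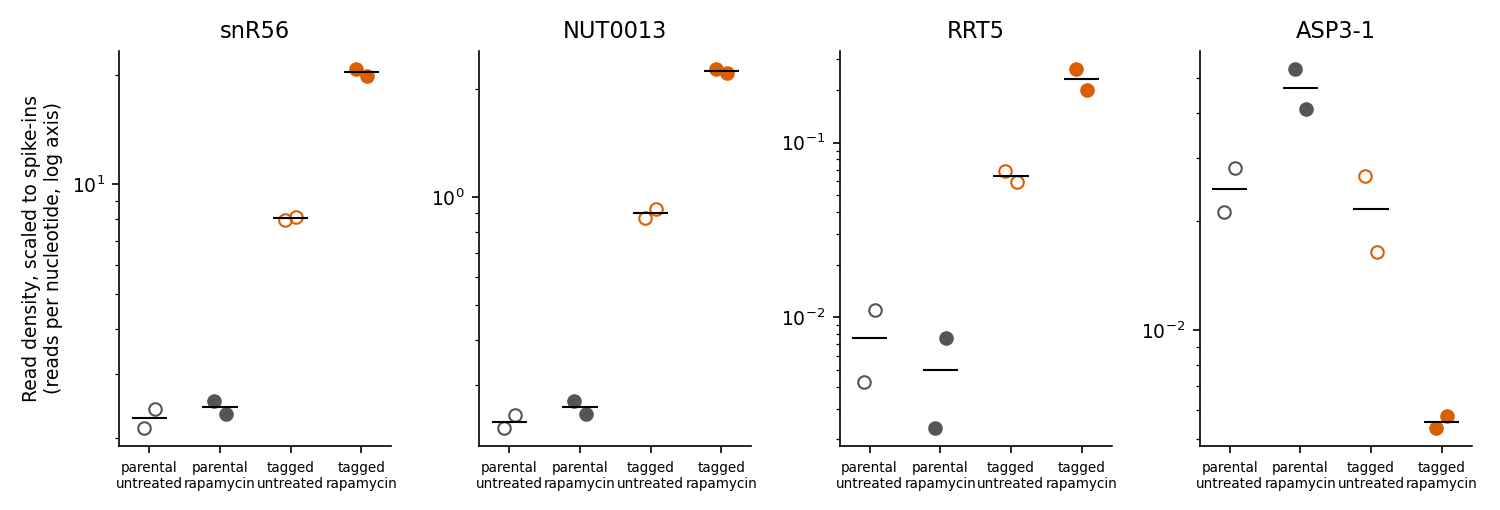
Read density of the 4 features called in the interaction (log axes, 1 panel each), with both libraries of each group as points and their mean as a line; open points are untreated, filled points rapamycin, grey parental and orange tagged. snR56, NUT0013 and RRT5 are highest in treated tagged libraries and ASP3-1 is lowest there, at 0.00536 and 0.00581.

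Further features came close to the threshold and were not called. YCR081C-A had 2 to 4 reads in parental libraries, 4 and 5 in untreated tagged and 10 and 12 in treated tagged libraries, an interaction of 1.64 ± 0.32 (limma adjusted p = 0.0593). XUT1554, YDL025W-A and YGR259C had the same adjusted p and interactions of 1.35 ± 0.27, 1.41 ± 0.28 and 1.5 ± 0.30, each with a parental drug effect below 0 (−0.66, −0.63 and −0.72). In these 3 features rapamycin raised the level in tagged cells (0.69, 0.79 and 0.78, limma adjusted p = 0.032, 0.0263 and 0.0312), while the negative parental effects were not called. Both signs are favoured by choosing features for a high interaction. On the lower side, YER137W-A had an interaction of −1.62 ± 0.40, YDR510C-A of −1.36 ± 0.34, YEL020C-B of −1.03 ± 0.27 and XUT0415 of −1.39 ± 0.36 (limma adjusted p = 0.136, 0.136, 0.174 and 0.174). Each of these 4 rests on at most 24 reads in any library.

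XUTs, the class named in the series title, had 0 of 1461 tested members called higher and 0 called lower in the interaction by limma. At an unadjusted p under 0.05 there were 147 higher and 16 lower, together 11.2% of XUTs beside 9.68% of all features. Voom on the recovered reads called 2 and 0. The XUT median was 0.20 beside 0.22 for all features and −0.03 on the protein-coding scale. For 1018 XUTs (69.7%) the 95% interval lay within 2-fold in either direction, and for 1094 its upper bound lay under 2-fold. At least 2-fold values were held by 40 higher and 5 lower. Rapamycin called 1 XUT higher and 1 lower in parental cells and 142 higher and 2 lower in tagged cells, where the 142 are 9.72% of XUTs beside 13.7% of all features. Without parental untreated replicate 1 or 2 the calls were 2 higher and 0 lower, or 0 and 1, and without parental rapamycin replicate 1 or 2 they were 24 and 4, or 40 and 4. Without tagged untreated replicate 1 or 2 they were 25 and 1, or 15 and 3, and without tagged rapamycin replicate 1 or 2 they were 9 and 6, or 13 and 0.

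Of the 5 XUTs of lowest p, XUT1468 had 5 to 10 reads in parental libraries, 3 in each untreated tagged library and 15 and 13 in treated ones. Its interaction was 1.63 ± 0.34 (limma adjusted p = 0.0829), and its tagged drug effect of 2.02 was called. XUT0010 and XUT1754 had interactions of 1.40 ± 0.29 and 1.44 ± 0.31 (limma adjusted p = 0.0829 for both), each from a parental drug effect of −0.91. XUT0010 had 12 and 8 reads in untreated and 4 and 3 in treated parental libraries against 12 to 17 in tagged ones. XUT1754 had 12 and 10, then 3 and 6 reads in parental libraries, and 14 and 15, then 22 and 14 in tagged libraries. In 4 of the 5 (XUT1554, XUT0010, XUT1754 and XUT0807) the parental effect was negative. The choice by lowest p of a positive interaction favours that sign, because the parental effect is subtracted in it.

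CUTs had 0 of 828 members called higher or lower by limma and 1 and 0 by voom, with a median of 0.20. At an unadjusted p under 0.05 stood 107 higher and 12 lower, together 14.4% of CUTs beside 9.68% of all features. CUT465 had densities of 0.364 and 0.322, then 0.262 and 0.281 in parental libraries, and 0.346 and 0.423, then 0.609 and 0.639 in tagged libraries. Its treated tagged libraries were above all others, and the interaction was 1.02 ± 0.21 (limma adjusted p = 0.0829). CUT866 had 141 to 176 reads in parental, 658 and 609 in untreated tagged and 941 and 824 in treated tagged libraries, an interaction of 0.85 ± 0.21 (limma adjusted p = 0.136). CUT137, CUT256 and CUT843 had interactions of 1.17, 1.16 and 1.11 from at most 36 reads a library.

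NUTs had 1 of 1189 members called higher, NUT0013, and 0 lower, with 2 and 0 by voom and a median of 0.17. At an unadjusted p under 0.05 stood 59 higher and 5 lower, together 5.38% of NUTs beside 9.68% of all features. NUT1082 had densities of 0.417 and 0.491, then 0.461 and 0.510 in parental libraries, and 0.418 and 0.422, then 0.832 and 0.805 in tagged libraries. Only its treated tagged libraries stood apart, and the interaction was 0.85 ± 0.21 (limma adjusted p = 0.136). NUT0380, NUT0743 and NUT0032 had interactions of 0.99, 1.14 and 1.41 (limma adjusted p = 0.136, 0.136 and 0.143).

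The 76 snoRNAs had the lowest median of the classes, 0.03, with 1 called higher, snR56, and 0 lower. At an unadjusted p under 0.05 there were 2 higher and 0 lower (2.63%, beside 9.68% of all features). On the protein-coding scale the snoRNA median was −0.23, where the median of XUTs was −0.03. The next snoRNA by p was snR58, with an interaction of 0.62 ± 0.25 (limma adjusted p = 0.492). The values of other snoRNAs that were higher in tagged libraries were smaller. snR78 had densities of 2.52 to 3.33 in parental, 12.5 and 13.2 in untreated tagged and 20.4 and 18.3 in treated tagged libraries, an interaction of 0.36 ± 0.19 (limma adjusted p = 0.533), and rose with the drug in tagged cells by 0.59 (limma adjusted p = 0.0147). snR52 had 4.36 to 5.44 in parental and 31.5 to 40.4 in tagged libraries and an interaction of 0.24 ± 0.19 (limma adjusted p = 0.624). snR40 was the lowest of all snoRNAs at −0.34 ± 0.19 (limma adjusted p = 0.546), and snR34 stood at 0.29 ± 0.15 (limma adjusted p = 0.534).

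The 8 snoRNAs encoded inside introns had a median interaction of 0.01 and their host genes one of 0.09, with 0 called in either by limma or voom and 0 at an unadjusted p under 0.05. Host and guest were close in some pairs: snR59 stood at −0.26 ± 0.23 and its host RPL7B, a large-subunit ribosomal protein gene, at −0.28 ± 0.20, and snR54 and its host IMD4 both at 0.21. In others they were apart: snR44 stood at −0.10 ± 0.17 and its host RPS22B at 0.25 ± 0.18.

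Of the 25 mitochondrial features tested, 0 were called by limma or voom and 1 was higher at an unadjusted p under 0.05, with a median of 0.09. The ATP synthase subunit gene ATP8 had densities of 0.334 and 0.208, then 0.419 and 0.380 in parental libraries, and 0.310 and 0.285, then 0.564 and 0.654 in tagged libraries. It rose with the drug in tagged cells by 1.01 (limma adjusted p = 0.00373), was 0.58 in parental cells, and had an interaction of 0.43 ± 0.25 (limma adjusted p = 0.568).

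**Figure D4:**
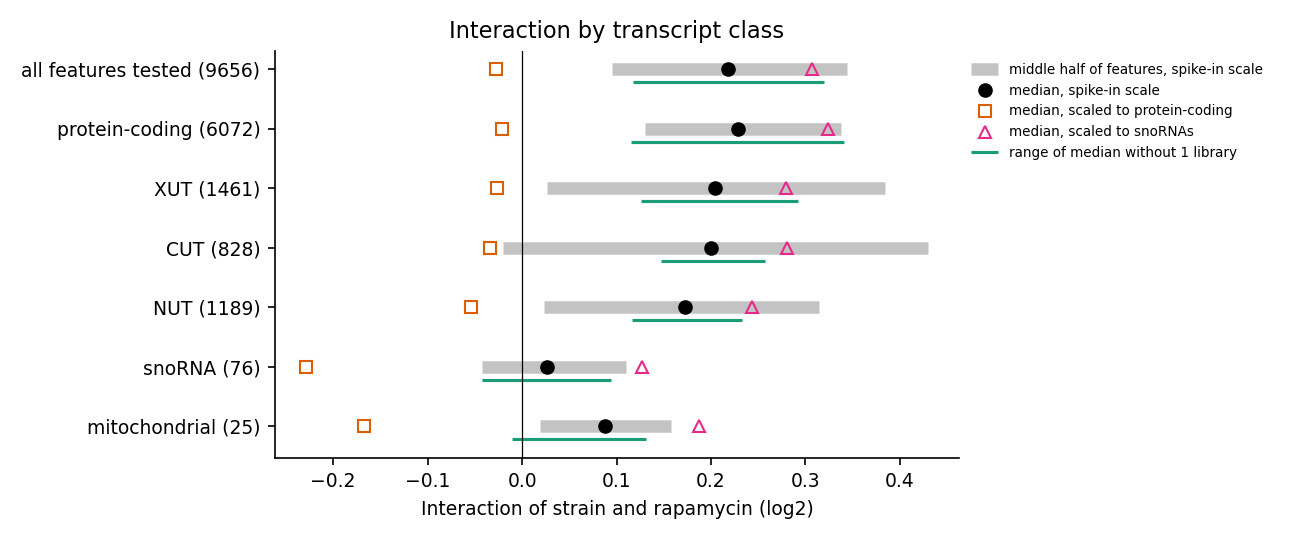
Interaction (log2, x axis) by transcript class (tested features in brackets): black points are medians on the spike-in scale with the 25th to 75th percentile as a grey bar, squares and triangles are medians on the protein-coding scale or snoRNAs, and green lines are the range of medians without 1 library. The XUT median of 0.20 lies beside the all-feature median of 0.22, and the snoRNA median is 0.03.

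Protein-coding features had 1 of 6072 called higher, RRT5, and 1 lower, ASP3-1, with 564 and 22 at an unadjusted p under 0.05 and a median of 0.23. Gene lists were compared with the all-feature median of 0.22, or −0.03 on the protein-coding scale. Of the pathway and function lists, limma called 1 member in the interaction, ASP3-1, so the values that follow are medians and counts at an unadjusted p under 0.05, which 9.68% of all features reached.

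Histone genes, which build nucleosomes and are transcribed in S phase, had the highest median of the lists, 0.47 (0.22 on the protein-coding scale), with 10 of 10 above 0, 7 at an unadjusted p under 0.05 and 0 called by voom. HHT1, encoding histone H3, had densities of 11.0 and 12.2, then 9.92 and 10.5 in parental libraries, and 19.8 and 19.4, then 30.9 and 24.2 in tagged libraries. Its drug effect was −0.19 in parental cells and 0.48 in tagged cells, where it was called (limma adjusted p = 0.0323), and the interaction was 0.67 ± 0.19 (limma adjusted p = 0.207). The histone H4 gene HHF1 (0.53 ± 0.18) and the H2B genes HTB1 (0.51 ± 0.20) and HTB2 (0.49 ± 0.19) had adjusted p of 0.387, 0.454 and 0.444 by limma. The variant histone gene HTZ1 and the linker histone gene HHO1 stood near the all-feature median on both scales, at 0.19 and 0.18, or −0.06 and −0.07 on the protein-coding scale. Rapamycin called 6 of the 10 (60%) higher in tagged cells, beside 13.7% of all features. On the protein-coding scale it called 0 of the 10 higher there, and 6 of all 9656 features. The H3 and H4 genes have near-identical copies, between which reads may be split. Histone medians were 0.33 to 0.59 without 1 library. Of the cell-cycle lists, the G1 to S list had a median of 0.18 over 23 genes and the G2 to M list 0.14 over 12, with 0 at an unadjusted p under 0.05 and 0 called by voom in either.

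Genes for protein folding under Hsf1, the heat-shock transcription factor, had a median of 0.38 over 20 (0.13 on the protein-coding scale), with 20 above 0, 8 at an unadjusted p under 0.05 and 2 called by voom. Rapamycin called 14 of them (70.0%) higher in tagged cells, beside 13.7% of all features, and 0 on the protein-coding scale. CUR1, a sorting factor for misfolded proteins, had densities of 0.257 and 0.334, then 0.302 and 0.353 in parental libraries, and 0.333 and 0.296, then 0.510 and 0.683 in tagged libraries, an interaction of 0.74 ± 0.24 (limma adjusted p = 0.344). The small heat-shock protein gene HSP42 stood at 0.70 ± 0.23, the Hsp90 gene HSP82 at 0.82 ± 0.28 and the disaggregase gene HSP104 at 0.83 ± 0.29 (limma adjusted p = 0.361, 0.382 and 0.409). The treated tagged replicates differed for HSP82, at 1.03 and 1.92, and for HSP104, at 2.63 and 5.06, and without tagged rapamycin replicate 2 their interactions were 0.38 and 0.36. SSC1, a mitochondrial Hsp70 gene, was the lowest of the list at 0.16 ± 0.19.

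The general stress list had a median of 0.32 over 45 genes (0.08 on the protein-coding scale), with 15 at an unadjusted p under 0.05 and 3 called by voom. Rapamycin called 24 (53.3%) higher in tagged cells, beside 13.7% of all features, and 0 on the protein-coding scale. The list median was 0.17 without tagged untreated replicate 2 and 0.51 without replicate 1. It shares members with the folding list. HSP30, a plasma-membrane heat-shock protein gene, had densities of 0.955 and 1.17, then 1.54 and 1.38 in parental libraries, and 0.888 and 0.607, then 1.75 and 4.39 in tagged libraries. Its interaction was 1.44 ± 0.37 (limma adjusted p = 0.159), and tagged rapamycin replicate 2 held 4111 of its reads against 1771 in replicate 1. The HSP30 interaction was 0.78 without that library. NUT0864 had 1.00 to 1.04 times the reads of HSP30 in every library and an interaction of 1.41 ± 0.36 (limma adjusted p = 0.174). The trehalose synthesis genes TPS1, TPS2 and TSL1 stood at 0.52, 0.50 and 0.70 (limma adjusted p = 0.437, 0.5 and 0.454).

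Proteasome genes had a median of 0.37 over 32 (0.12 on the protein-coding scale), with 32 above 0, 7 at an unadjusted p under 0.05 and 0 called by voom. Rapamycin called 20 (62.5%) higher in tagged cells, beside 13.7% of all features, and 0 on the protein-coding scale. The list median was 0.24 without parental untreated replicate 2. RPN8, a subunit of the regulatory lid, had densities of 1.57 and 1.8, then 1.6 and 1.6 in parental libraries, and 2.02 and 2.02, then 3.0 and 2.57 in tagged libraries. The treated tagged libraries were highest, and the interaction was 0.52 ± 0.20 (limma adjusted p = 0.443). The polyubiquitin gene UBI4 stood at 0.44 ± 0.19 (limma adjusted p = 0.492) and its drug effect in tagged cells, 0.73, was called (limma adjusted p = 0.00422).

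**Figure D5:**
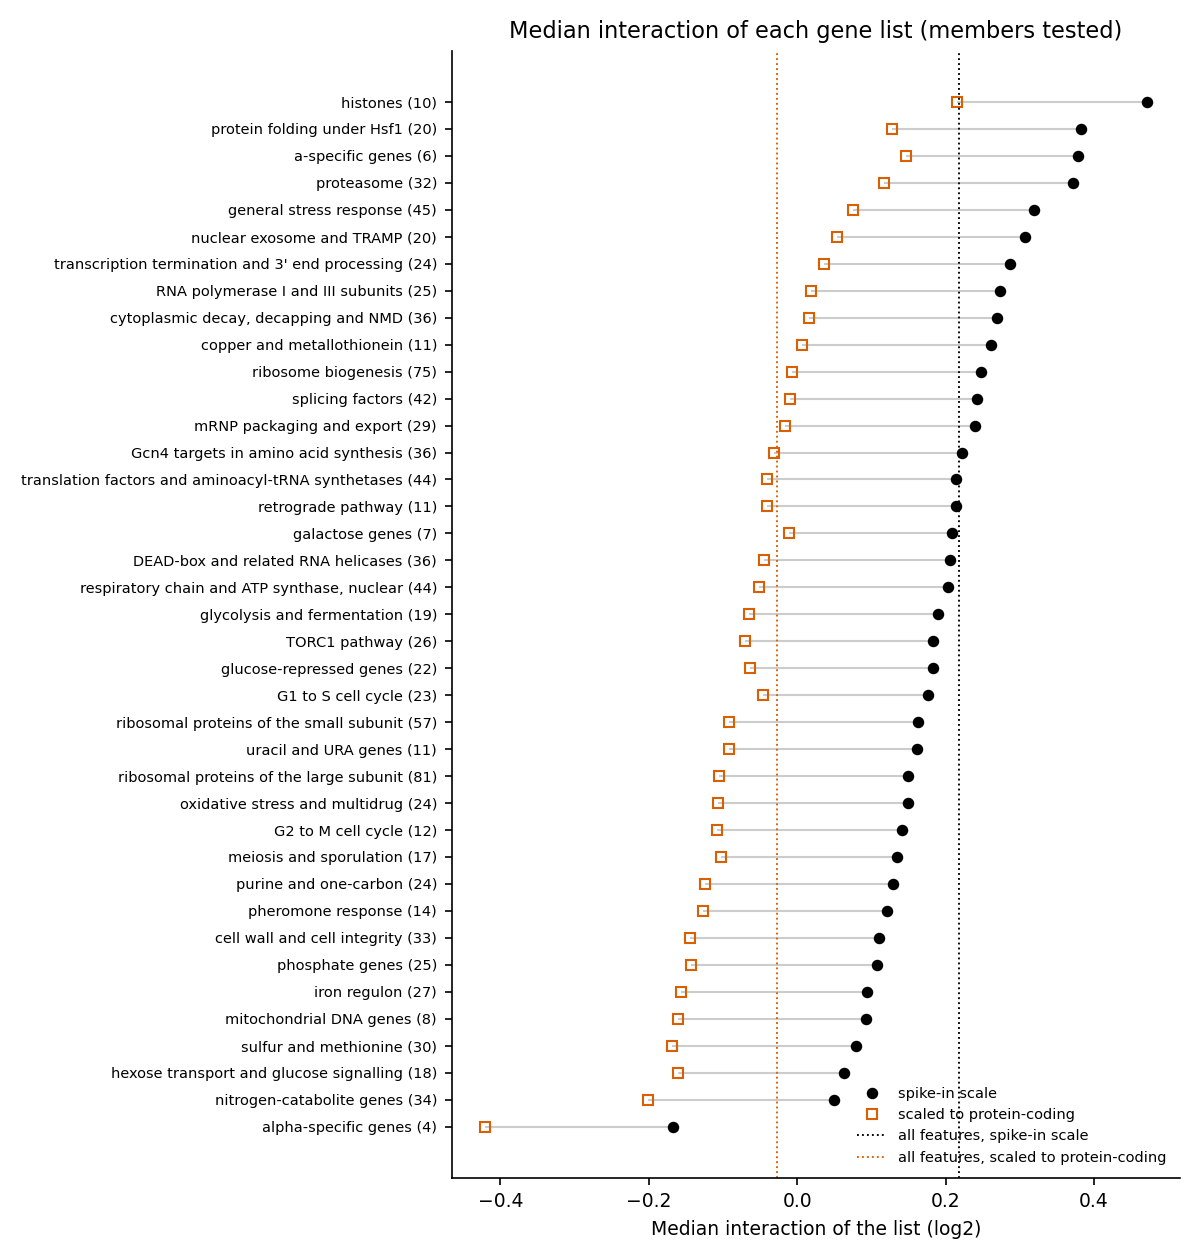
Median interaction (log2, x axis) of each gene list, members tested in brackets, on the spike-in scale (black points) and on the protein-coding scale (open squares), with the all-feature medians of 0.22 and −0.03 as dotted lines. Histone, folding, a-specific, proteasome and stress lists lie farthest to the right on each scale, next to the nuclear exosome list, and the nitrogen-catabolite and alpha-specific lists farthest to the left.

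Gene groups that TORC1 controls were compared next. Ribosomal protein genes, which fall when TORC1 is inhibited in strains that respond to the drug, had medians of 0.15 over 81 for the large and 0.16 over 57 for the small subunit (−0.11 and −0.09 on the protein-coding scale). Without parental untreated replicate 2 these medians were 0.00891 and 0.0192, and without replicate 1 they were 0.30 for both. Only 3 and 1 of them were at an unadjusted p under 0.05, and 0 were called by voom. RPL18B had the lowest p at 0.57 ± 0.20 and RPS27A stood at 0.50 ± 0.20 (limma adjusted p = 0.429 and 0.492). Ribosome biogenesis genes had a median of 0.25 over 75, with 4 at an unadjusted p under 0.05 and 0 by voom, led by IMP4, a component of the small-subunit processome, at 0.74 ± 0.22 (limma adjusted p = 0.261). Genes of RNA polymerases I and III had a median of 0.27 over 25, and translation factors and aminoacyl-tRNA synthetases one of 0.21 over 44.

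Nitrogen-catabolite genes, which are derepressed when TORC1 is inhibited, had a median of 0.05 over 34 (−0.20 on the protein-coding scale), with ASP3-1 called lower and no other at an unadjusted p under 0.05. The list median was −0.06 without tagged rapamycin replicate 1 and 0.16 without replicate 2. The median drug effect of the list was 0.25 in parental and 0.35 in tagged cells, beside 0.10 and 0.32 for all features. On the protein-coding scale it was 0.15 in parental and 0.006 in tagged cells, beside 0.01 and −0.01 for all features. The allantoate permease gene DAL5 had densities of 0.163 and 0.190, then 0.291 and 0.341 in parental libraries, and 0.120 and 0.113, then 0.185 and 0.163 in tagged libraries. Treated libraries were above untreated ones in both strains, with effects of 0.81 and 0.55 and an interaction of −0.26 ± 0.22 (limma adjusted p = 0.63). Retrograde-pathway genes (11) and Gcn4 targets (36) had medians of 0.21 and 0.22, with IDH2 at 0.39 ± 0.19 and LYS1 at 0.45 ± 0.20 (limma adjusted p = 0.52 and 0.504).

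Mating genes had median interactions of opposite sign in the alpha-specific and a-specific lists, where a positive sign is that of most features. All 4 alpha-specific genes lay below 0, with a median of −0.17 (−0.42 on the protein-coding scale). MF(ALPHA)2, an alpha-factor gene, had densities of 25.7 and 26.9, then 28.0 and 24.9 in parental libraries, and 2.78 and 2.49, then 1.73 and 1.58 in tagged libraries. It fell with the drug in tagged cells by 0.67 (limma adjusted p = 0.00708), had an effect of 0.005 in parental cells, and had an interaction of −0.67 ± 0.18 (limma adjusted p = 0.191). SAG1, the alpha-agglutinin gene, stood at −0.20 ± 0.19, the a-factor receptor gene STE3 at −0.14 ± 0.20 and MF(ALPHA)1 at −0.12 ± 0.18. Of the 6 a-specific genes 5 (83.3%) lay above 0, beside 86.5% of all features, with a median of 0.38 and 1 called by voom. MFA1, an a-factor gene, had 9 and 10, then 6 and 0 reads in parental libraries and 14 and 28, then 34 and 28 in tagged libraries, an interaction of 2.53 ± 0.64 (limma adjusted p = 0.155). The library with 0 reads weighs in that size: the MFA1 interaction was 1.24 without parental rapamycin replicate 2 and 3.82 without replicate 1. All a-specific genes had densities of 0.234 or less in each library. The pheromone response list had a median of 0.12 over 14.

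Lists of RNA processing and decay genes had medians from 0.21 to 0.31, beside 0.22 for all features and 0.32 for the general stress list. On the protein-coding scale they ran from −0.04 (DEAD-box helicases) to 0.05 (nuclear exosome and TRAMP), beside −0.03 for all features and 0.08 for the stress list. Nuclear exosome and TRAMP genes had a median of 0.31 over 20, termination and 3′ end processing genes 0.29 over 24, cytoplasmic decay genes 0.27 over 36, splicing factors 0.24 over 42, mRNP packaging and export genes 0.24 over 29, and DEAD-box helicases 0.21 over 36. At an unadjusted p under 0.05 these held 0, 2, 3, 3, 1 and 1 members, and voom called 0. The lowest p of each list belonged to RAI1 (0.41 ± 0.22), YTH1 (0.53 ± 0.20), DCS1 (0.49 ± 0.20), PRP18 (0.64 ± 0.23), MFT1 (0.48 ± 0.22) and RRP3 (0.62 ± 0.22), with limma adjusted p from 0.429 to 0.534.

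The remaining lists had medians from 0.06 (hexose transport and glucose signalling, 18 genes) to 0.26 (copper and metallothionein, 11 genes). The hexose list was led by HXT6, a high-affinity glucose transporter gene, at 1.41 ± 0.54 (limma adjusted p = 0.454). The HXT6 replicates were far apart without the drug, 409 and 97 reads in parental and 537 and 166 in tagged libraries, and the HXT6 interaction was 0.62 without parental untreated replicate 1 or tagged untreated replicate 2. The metallothionein gene CUP1-1 stood at −2.74 ± 0.89 (limma adjusted p = 0.355), and the CUP1-1 interaction was −0.85 without parental untreated replicate 1 and −4.63 without replicate 2. Its untreated parental libraries held 5 and 71 reads, its treated ones 274 and 96, and its tagged libraries 733 to 896, and reads of CUP1-1 and its near-identical copy CUP1-2 (−0.68 ± 0.29) cannot be assigned with certainty. Among the other lists, the respiratory chain list was led by CYC7, a cytochrome c gene, at 0.72 ± 0.21, the phosphate list by PHM8 at 0.60 ± 0.19 and the cell-wall list by TIR1 at −0.74 ± 0.28 (limma adjusted p = 0.261, 0.321 and 0.454).

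Open reading frames that start within 500 bases behind a same-strand gene of the top 5% by density had a median interaction of 0.25 over 84, beside 0.22 for all features and 0.16 for the 84 genes in front of them. Of these 84 frames 1 was called, RRT5, as by voom, and 11 (13.1%) were at an unadjusted p under 0.05, all higher, beside 9.68% of all features. Of the genes in front 2 were. The 34 behind ribosomal protein genes had a median of 0.32. YMR230W-A, 126 bases behind RPS10B, had 12 to 22 reads in parental libraries, 289 and 225 in untreated and 505 and 407 in treated tagged libraries. Its interaction was 1.24 ± 0.29 (limma adjusted p = 0.117), and that of RPS10B 0.15 ± 0.19 (limma adjusted p = 0.71). YBR032W, a frame of the same kind that is also higher in tagged than parental libraries, had an interaction of −0.02 ± 0.30 (limma adjusted p = 0.98). On the protein-coding scale the medians of the frames and of the genes in front were 0.00 and −0.10.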

How the data were processed

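RNA of 8 libraries (4 groups of 2) was sequenced with strand kept. The submitters' processing notes name Trim Galore, HISAT2 2.2.0, featureCounts 2.0.0, DESeq2 and the R64 build, per the labels, without their order or role. The authors deposited a signal, the read density per nucleotide of 10891 features, per the file headers. Each value is whole reads over a length and a factor per library equal to the median-of-ratios factor of the 92 spike-ins. All positive values came out whole within 0.01 reads, partly because lengths up to 40000 were chosen for it, so reads of some features may be too low by a common factor. How reads over repeats were counted is not stated in the labels used here.

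The interaction was tested by limma 3.58.1 (R 4.3.3) with log2 values of density plus 0.00721 (the 5th percentile of positive values), for features with a mean density of at least 0.0133. A mean trend, a spread shared over 8 libraries (4 residual and 18.0 prior degrees of freedom) and Benjamini-Hochberg adjustment over 9656 features at 0.05 were used. Errors of fold changes are standard errors, and low features are understated. The table holds no counts, so voom on recovered reads was an alternative. Named are DBP2 with its neighbours, called features, up to 5 features of each class and the leading members of each list by p, and features shown beside them (such as RPS8A, DAL5, snR52 and HSP82) were chosen after their values were seen. Members and lists were chosen with earlier results of these data known. Scripts were tested on simulated data with independent noise in each feature and library. The simulation held no shift of whole replicate libraries, so it does not cover that source of variation. Promoter motifs were not analysed here. Replicates differed beyond counting noise: the chi-square of their reads per degree of freedom was 5.17 to 20.9.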

Additional observations from a re-analysis of the deposited data

Results flagged for a closer look

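On the spike-in scale the drug effect differed between the strains, by the test of the interaction itself, for 4 features. On the protein-coding scale and under quantile normalization 0 features were called. The reads of NUT0013 ran parallel to those of snR56, and whether both count the same reads was not tested. snR56 had an interaction of 1.23, NUT0013 of 1.18, RRT5 of 2.01 and ASP3-1 of −1.91 (limma, Benjamini-Hochberg adjusted p = 0.00849, 0.0211, 0.0211 and 0.0211). For snR56 and NUT0013 all 4 differences of treated and untreated libraries were above those of the parental strain, as for RRT5, and for ASP3-1 all 4 were below. Of all 9656 features, 2326 stood apart above and 112 below in this way. The separation comes from the same libraries as the calls and is no further test of them. Of 21 alternatives snR56 was called in 17, NUT0013 in 16 and RRT5 in 14, and ASP3-1 in 14 of the 19 in which it was tested. No group has 4 or more samples, so single libraries were not tested as outliers.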

How the results depend on the processing

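Counts are given as higher and lower for the interaction, for rapamycin in parental cells, for rapamycin in tagged cells and for XUTs in the interaction, beside main values of 3 and 1, 2 and 1, 1322 and 14, and 0 and 0. Pseudocount at the 1st percentile: 2 and 1, 2 and 1, 1017 and 11, and 0 and 0. Pseudocount at the 25th percentile: 8 and 1, 7 and 1, 2128 and 26, and 2 higher. No filter: 1 and 0, 0 and 0, 271 and 8. Filter at the 30th percentile: 55 and 6, 39 and 7, 2493 and 17, and 17 and 2. Scaled to protein-coding features: 0 and 0, 0 and 0, 6 and 16, 0 and 0. Scaled to snoRNAs: 69 and 11, 29 and 14, 1172 and 16, and 25 and 3. Quantile normalization: 0 and 0, 0 and 0, 2 and 3. Robust spread: 48 and 4, 29 and 8, 2465 and 22, and 19 and 1. No trend: 2 and 1, 1 and 1, 202 and 7. Replicate block: 84 and 17, 41 and 16, 879 and 25, and 30 and 4. Replicate block with scaling to protein-coding features: 0 and 0, 0 and 0, 4 and 5. Voom on recovered reads: 14 and 2, 20 and 3, 2991 and 18, and 2 XUTs. At least 2-fold: 1 higher in parental and 40 and 4 in tagged cells. A mean of at least 50 reads, added after the data were seen: 21 and 1, 23 and 1, 2748 and 8, and 2 XUTs. Leaving out 1 library gave 4 to 103 and 0 to 23, 1 to 47 and 0 to 30, 106 to 4675 and 11 to 37, and 0 to 40 and 0 to 6, with the single library left in that group taken to vary like the rest.

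The prior degrees of freedom ranged from 3.51 under quantile normalization and 3.77 under scaling to protein-coding features to infinite under the replicate block, and rose when some libraries were left out. Deviations of same-numbered replicates had correlations over features of −0.134 to 0.151, a measure that leaves out shifts of whole libraries. Replicate 1 minus replicate 2 had a median of −0.203 in untreated and −0.0621 in treated parental cells. In tagged cells it was 0.0635 untreated and 0.199 treated. Whether same-numbered libraries belong together within a strain cannot be told from these values, so the block is not known to be a pairing. Of single-feature values, the DBP2 interaction was −0.0407 to 0.556 without 1 library, below 0 without tagged rapamycin replicate 1, and ALK1, a mitotic kinase gene, was −0.0123 after scaling to protein-coding features, with and without the block. The other features that the naming rule gave and that are printed here kept their sign under these alternatives. Of 30 features shown beside them, 11 went from above to below 0 on the protein-coding scale: RPS8A (−0.07), AAR2 (−0.15), RPL29 (−0.16), RPS10B (−0.10), snR52 (−0.01), snR54 (−0.04), IMD4 (−0.05), RPS22B (−0.007), HTZ1 (−0.06), HHO1 (−0.07) and SSC1 (−0.10). AAR2, YBR032W, SSC1 and MF(ALPHA)1 changed sign without 1 library (−0.18, 0.35, −0.003 and 0.003).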

Other observations

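Beside the 4 called features, 3 were called in more than 10 of the 21 alternatives and were picked for that after their values were seen. Over the alternatives that called them, YDL025W-A (12) stood at 1.12 to 1.65, FYV7, a gene for rRNA processing (11), at 0.96 to 1.12, and XUT1468 (11) at 1.01 to 2.03. NRS1 had 10 and 12, then 22 and 26 reads in parental libraries and 5 and 12, then 7 and 6 in tagged libraries, an interaction of −1.13 ± 0.36 (limma adjusted p = 0.329).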
